A study of Homo sapiens with 10 samples.

Results

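Epithelial-mesenchymal transition (EMT) genes were examined in cells derived from the human embryonic stem cell line H9, with and without overexpression of DAZL, a germ cell RNA-binding protein. The 10 members are the junction genes, mesenchymal markers and transcription factors by which the transition is usually described, namely CDH1, EPCAM, CDH2, VIM, FN1, SNAI1, SNAI2, ZEB1, ZEB2 and TWIST1, and all 10 were found among the 64940 genes of the deposited table. The control libraries (n = 2) have the wild-type genotype and are described by the sample labels as spontaneously differentiated cells, and by the series design as primordial germ cell-like cells (PGCLCs). The oeDAZL libraries (n = 2) come from PGCLCs that overexpress DAZL, which in the study's methods was delivered by a lentivirus during differentiation with BMP4 and BMP8a. These methods give BMPs and a lentivirus for overexpression experiments in general, and for the miRNA libraries they give the controls BMPs and a GFP virus. A figure legend calls both RNA sequencing groups PGCLCs. However, the labels differ, and no source names the treatment of the RNA sequencing controls in particular. DAZL and culture conditions therefore cannot be told apart as sources of a difference. The values are TPM, which are scaled to gene length and to the total of each library, so that levels can be compared between genes while the read depth behind them is unknown.

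EMT is the programme by which epithelial cells loosen their junctions and take on the shape and motility of mesenchymal cells, and it operates in gastrulation, in the neural crest and in tumour spread. E-cadherin (CDH1) and EPCAM hold epithelial cells together, whereas N-cadherin (CDH2), the intermediate filament vimentin (VIM) and the matrix protein fibronectin (FN1) mark mesenchymal cells. Zinc finger repressors of the SNAI and ZEB families and the basic helix-loop-helix factor TWIST1 drive the switch, in large part by binding E-box sequences in the promoters of epithelial genes such as CDH1. The first germ cells of the embryo arise from cells that pass through a partial transition of this kind before they migrate.

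The labels were first checked against DAZL itself, which was listed at 0 and 0.0333 TPM in control and at 102 and 101 TPM in oeDAZL. The libraries of each group were not equally close to each other. The standard deviation of the log2 difference over the tested genes was 0.32 between the control libraries and 0.28 between the oeDAZL libraries, and it was 0.32 between control 2 and oeDAZL 2. Control 1 stood farther away, at 0.41 from oeDAZL 1 and 0.38 from oeDAZL 2. Control 2 was thus as near to oeDAZL 2 as to its own replicate, and values without control 1 are given below for the members and for some of the other genes. The labels do not say that the libraries came from separate cultures, so p-values measure the spread between these libraries, which may be technical.

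Each library held RNA of epithelial and of mesenchymal markers, and no member differed 2-fold between the groups. Bulk RNA does not show whether the same cells expressed both kinds of marker. In order of their mean TPM in the control libraries, the members ran from FN1, VIM, CDH1 and EPCAM through CDH2, SNAI2, ZEB2, TWIST1 and SNAI1 to ZEB1. FN1 had a higher mean TPM than 99.9% of the tested genes, CDH1 than 98.6%, and ZEB1 than 11.4%. Within the control group, the libraries of CDH2 and SNAI2 overlapped, as did those of ZEB2 and TWIST1, so that the order within these pairs is not resolved. In the oeDAZL group only CDH1 and EPCAM overlapped among neighbours in the order.

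**Figure D1:**
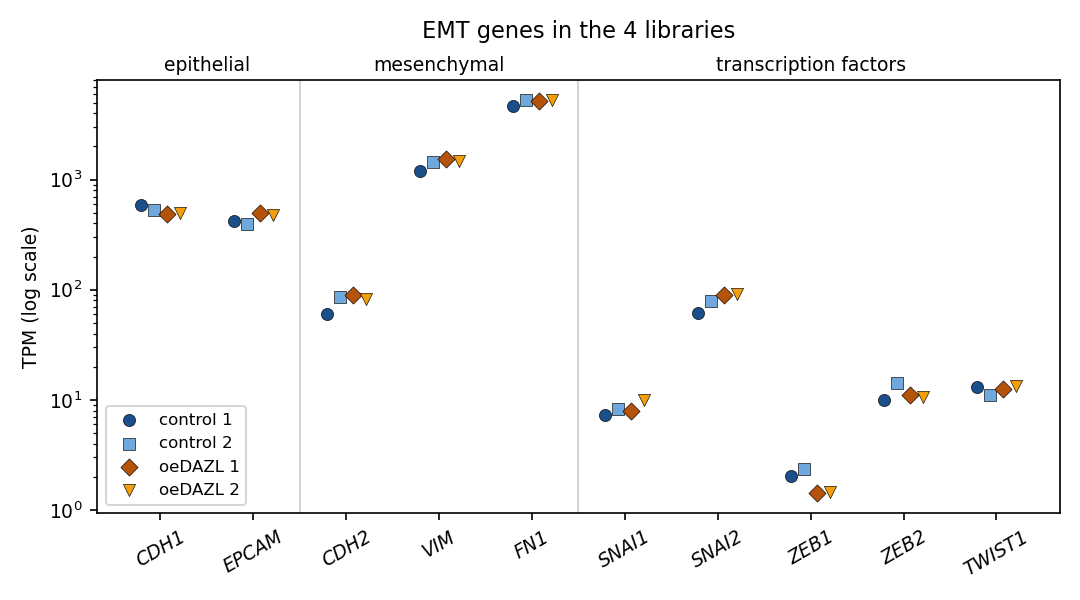
TPM of the 10 EMT genes (log scale) in each of the 4 libraries, grouped as epithelial markers, mesenchymal markers and transcription factors. The members span a range from 1.42 TPM for ZEB1 in oeDAZL 1 to 5333 TPM for FN1 in control 2, and for each gene the 4 libraries lie close together on this scale.

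The comparison asks whether DAZL overexpression was accompanied by a shift along the epithelial-mesenchymal axis. All 10 members had a mean TPM of at least 1 and were tested with limma on log2(TPM + 1) among 16687 genes. At a fold change of at least 2 with an unadjusted P of at most 0.05, 0 of the 10 members were called, against 115 of all tested genes (0.689%). An adjusted p under 0.05 in limma was reached by 0 members, against 0.0599% of all tested genes. An unadjusted P under 0.05 was reached by 3 members, EPCAM and SNAI2 with higher values and CDH1 with lower values in oeDAZL. Over all tested genes 20.2% passed this rule, 5.02% with higher and 15.2% with lower values, beside 3 of 10 members. The libraries of the groups did not overlap for 3 members that were higher in oeDAZL (EPCAM, VIM and SNAI2) and for 2 that were lower (CDH1 and ZEB1). Among all tested genes the groups did not overlap for 54.4%, of which 16% of the tested genes were higher and 38.4% were lower in oeDAZL. Library properties also differed between the groups, with 17239 and 16852 genes at 1 TPM or more in control and 16342 and 16428 in oeDAZL, and a mitochondrial share of 12.6% and 13.4% against 14.1% and 13.9%. Genes with lower values in oeDAZL were the majority, and the median log2 fold change of all tested genes was −0.08, and 0.01 after quantile normalization. Without control 2 the adjusted threshold in limma was passed by 4 members (CDH1, CDH2, VIM and SNAI2) and by 833 of all tested genes, and without control 1 by 0 members and 2 genes. A fit without 1 library takes its spread from the remaining pair alone, so these counts are not calls. The 3 members under an unadjusted P of 0.05 became 6 without control 2, 1 without either oeDAZL library and 2 with median-of-ratios scaling. Likewise, the 115 called genes divided into 21 higher and 94 lower as deposited, and 41 higher and 52 lower after quantile normalization, and their number was 325 without control 2, 177 without oeDAZL 1 and 246 without oeDAZL 2.

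The epithelial markers had mean differences of opposite sign, and neither passed the adjusted threshold. CDH1 (chr16:68737292-68835537 in hg38), which encodes the adhesion receptor of adherens junctions, was at 588 and 529 TPM in control and 483 and 500 TPM in oeDAZL. Both oeDAZL libraries lay below both control libraries. Its mean was 559 ± 41.5 TPM in control and 491 ± 12.4 TPM in oeDAZL (SD, n = 2 each), which gave a log2 fold change of −0.18 (standard error 0.07, adjusted p of 0.208 in limma). EPCAM (chr2:47345158-47387601), a homophilic adhesion molecule of epithelia that is also found on pluripotent and germ cells, was at 422 and 392 TPM in control and 494 and 476 TPM in oeDAZL. Each oeDAZL library exceeded each control library, and the mean went from 407 ± 21.2 to 485 ± 13.0 TPM (SD, n = 2 each). The log2 fold change of EPCAM was 0.25 (standard error 0.06, adjusted p of 0.116 in limma). Leaving out control 1 gave −0.11 for CDH1 and 0.31 for EPCAM, and leaving out control 2 gave −0.26 and 0.20, so neither direction rested on 1 control library. With median-of-ratios scaling CDH1 was at −0.10 and no longer had an unadjusted P under 0.05, while EPCAM was at 0.34. In bulk RNA, a smaller share of cells that express a gene and less of its RNA per cell cannot be told apart, here and for the genes below.

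The mesenchymal markers were highly expressed in every library and were lowest in control 1. CDH2 (chr18:27932879-28177946), the cadherin that replaces CDH1 in mesenchymal cells, was at 60.8 and 85.5 TPM in control and 89.1 and 83.2 TPM in oeDAZL. Control 1 was the low library, while control 2 lay within the range of the oeDAZL libraries. The log2 fold change of CDH2 was 0.25 (standard error 0.15, adjusted p of 0.396 in limma), and it was 0.01 without control 1 and 0.49 without control 2.

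VIM (chr10:17228241-17237593) was at 1188 and 1460 TPM in control and 1539 and 1469 TPM in oeDAZL. The groups did not overlap, although control 2 and oeDAZL 2 differed by less than the oeDAZL libraries did from each other. The log2 fold change was 0.19 (standard error 0.10, adjusted p of 0.338 in limma), and it was 0.04 without control 1 and 0.34 without control 2. FN1 (chr2:215360440-215436073) was at 4673 and 5333 TPM in control and 5186 and 5292 TPM in oeDAZL. Control 1 was again the low library, and control 2 was the highest of all. Its log2 fold change of 0.07 (standard error 0.08, adjusted p of 0.653 in limma) became −0.03 without control 1, so that no direction can be given for FN1. Control 1 was the lowest of the 4 libraries for 6 of the 10 members (CDH2, VIM, FN1, SNAI1, SNAI2 and ZEB2) and the highest for 1 (CDH1), whereas over all tested genes it was the lowest for 21.3% and the highest for 44.1%.

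**Figure D2:**
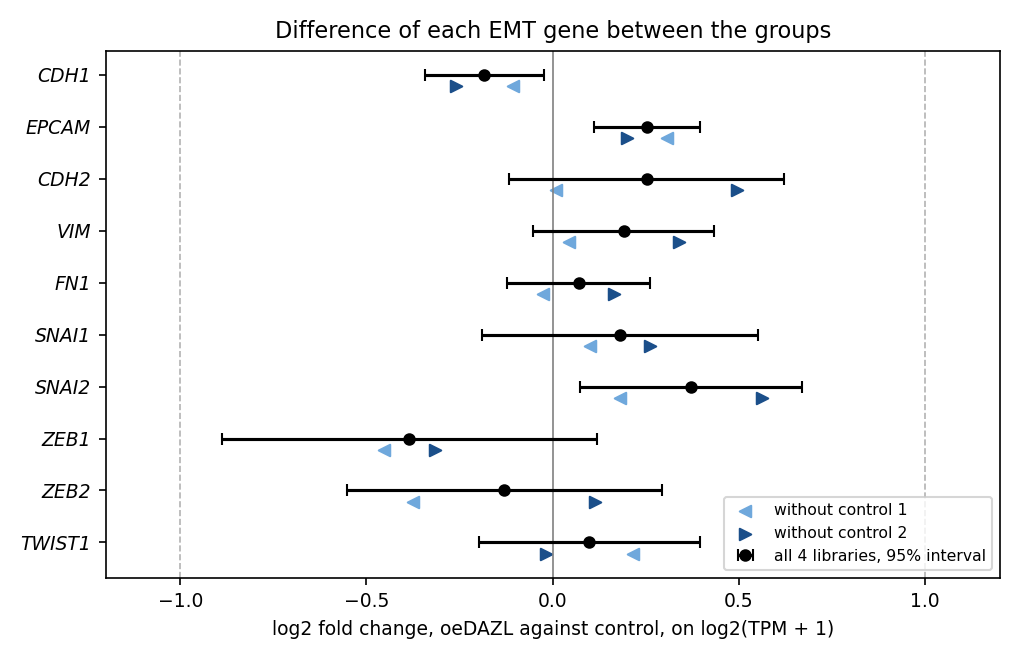
Log2 fold change of each EMT gene between oeDAZL and control on log2(TPM + 1). Black points are over all 4 libraries with 95% intervals from limma, all of them inside the dashed lines of a 2-fold change, and the triangles without control 1 or control 2 lie on opposite sides of 0 for FN1 (−0.03 and 0.17), ZEB2 and TWIST1.

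Ratios within a library do not depend on a factor that scales all of its genes alike, apart from the small effect of the pseudocount. Quantile normalization is not such a factor, and the ratios were not run with it. The log2 ratio of CDH2 to CDH1, which describes the balance of the cadherins, was −3.25 and −2.62 in control and −2.42 and −2.57 in oeDAZL. CDH1 was thus the more abundant cadherin in every library, and the ratio was lowest in control 1. The mean difference between the groups was 0.44, with an exact permutation p of 0.333 (two-sided), the smallest that 2 libraries against 2 can give. Without control 1 the difference was 0.12, and without control 2 it was 0.75. The log2 ratio of VIM to EPCAM was 1.49 and 1.89 in control and 1.64 and 1.62 in oeDAZL. Both oeDAZL libraries lay between the control libraries, and the difference of −0.06 had an exact permutation p of 1.0.

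**Figure D3:**
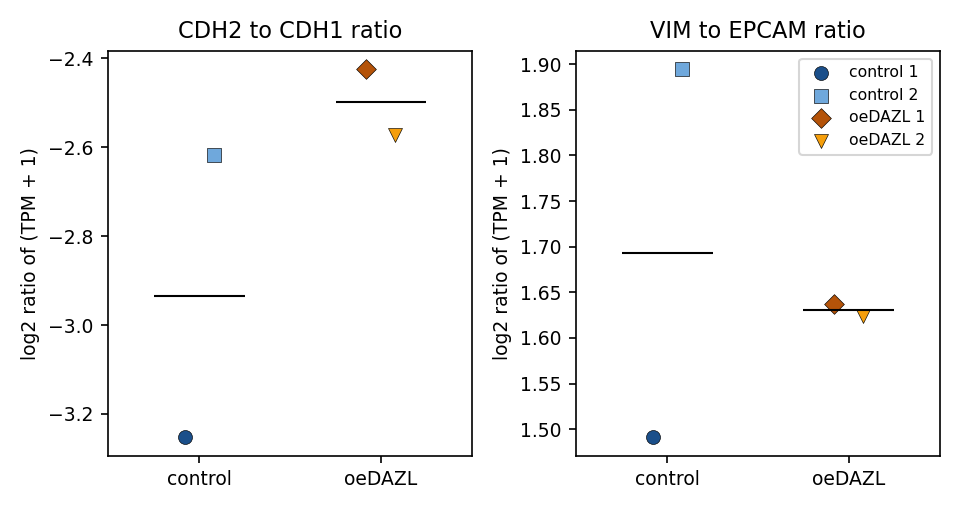
Log2 ratios of CDH2 to CDH1 and of VIM to EPCAM, from TPM + 1, in the 4 libraries, with the group means as lines. The cadherin ratio of control 1 (−3.25) lies apart from the other 3 libraries, and the ratio of VIM to EPCAM in oeDAZL lies between the control values of 1.49 and 1.89.

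Among the transcription factors, SNAI2 was the most abundant and ZEB1 the least. SNAI2 (chr8:48917598-48921740), which represses CDH1 and is a marker of the neural crest, was at 60.9 and 79.6 TPM in control and 90.1 and 90.7 TPM in oeDAZL. Both oeDAZL libraries were above both control libraries, and the mean went from 70.3 ± 13.2 to 90.4 ± 0.432 TPM (SD, n = 2 each). Its log2 fold change of 0.37 (standard error 0.12, adjusted p of 0.184 in limma) was the most positive among the members with all libraries. It was 0.56 without control 2 and 0.18 without control 1, where EPCAM (0.31) and TWIST1 (0.21) were higher. SNAI1 (chr20:49982980-49988886), the related factor that acts first in gastrulation, was at 7.31 and 8.30 TPM in control and 7.97 and 10.1 TPM in oeDAZL. The groups overlapped, and the log2 fold change was 0.18 (standard error 0.15, adjusted p of 0.539 in limma), with 0.0989 without control 1, 0.33 without oeDAZL 1 and 0.0289 without oeDAZL 2.

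ZEB1 (chr10:31318495-31529814) was at 2.03 and 2.33 TPM in control and 1.42 and 1.44 TPM in oeDAZL. Both oeDAZL libraries lay below both control libraries, at levels near the filter of 1 TPM. The log2 fold change was −0.38 (standard error 0.21, adjusted p of 0.348 in limma), and it was −0.45 without control 1. It was −0.57 with a pseudocount of 0.1 and −0.21 after quantile normalization, so its size at such low levels depends on the scale. ZEB2 (chr2:144364364-144521057) was at 9.94 and 14.4 TPM in control and 11.02 and 10.7 TPM in oeDAZL. The oeDAZL libraries lay between the control libraries, and the log2 fold change of −0.13 (standard error 0.17, adjusted p of 0.708 in limma) became −0.37 without control 1 and 0.11 without control 2. TWIST1 (chr7:19020991-19117636), which acts in mesoderm and neural crest, was at 13.1 and 11.02 TPM in control and 12.6 and 13.3 TPM in oeDAZL. The groups overlapped, and the log2 fold change of 0.10 (standard error 0.12, adjusted p of 0.687 in limma) became 0.21 without control 1 and −0.02 without control 2.

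The promoters of ZEB1, ZEB2 and VIM are shown because SNAI, ZEB and TWIST factors bind E-boxes and ZEB1 and VIM had groups that did not overlap. RefSeq promoters of GRCh38.p14, from 250 bases before to 50 bases after a start site, were used for 5 members (CDH2, FN1, VIM, ZEB1 and ZEB2, with 12 start sites). Those of CDH1, EPCAM, SNAI1, SNAI2 and TWIST1 were not used here, so the counts below do not cover these genes. The E-box CANNTG, which reads the same on both strands, occurred in 6 of these 12 promoters and in 68.7% of all 35116 promoters of 300 bases. Its variant CACCTG, or CAGGTG on the other strand, which SNAI and ZEB proteins prefer, is contained in the first motif. The variant occurred in 2 of the 12, both of them among the 7 start sites of ZEB1, and in 20.6% of all promoters. The ZEB1 promoter below was chosen as the one with the most CACCTG or CAGGTG matches, 3 in all, while that of ZEB2 holds 1 CANNTG and that of VIM 0. A match describes the letters and not a bound site. Each sequence is printed 5′ to 3′ on the strand of its gene, with CANNTG in capitals.
ZEB1 (chr10:31318966-31319265, forward strand): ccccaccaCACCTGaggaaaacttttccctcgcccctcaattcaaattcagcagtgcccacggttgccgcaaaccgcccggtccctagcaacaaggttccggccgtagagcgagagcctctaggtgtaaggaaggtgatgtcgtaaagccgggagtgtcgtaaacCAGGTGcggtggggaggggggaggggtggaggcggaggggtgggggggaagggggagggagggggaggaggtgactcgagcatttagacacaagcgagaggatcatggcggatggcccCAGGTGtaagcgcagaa
ZEB2 (chr2:144520070-144520369, reverse strand): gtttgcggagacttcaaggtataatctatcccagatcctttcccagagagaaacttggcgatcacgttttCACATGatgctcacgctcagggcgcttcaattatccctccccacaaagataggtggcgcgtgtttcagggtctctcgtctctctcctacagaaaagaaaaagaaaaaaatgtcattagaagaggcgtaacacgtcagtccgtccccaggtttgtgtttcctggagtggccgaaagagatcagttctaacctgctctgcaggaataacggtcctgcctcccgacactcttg
VIM (chr10:17227991-17228290, forward strand): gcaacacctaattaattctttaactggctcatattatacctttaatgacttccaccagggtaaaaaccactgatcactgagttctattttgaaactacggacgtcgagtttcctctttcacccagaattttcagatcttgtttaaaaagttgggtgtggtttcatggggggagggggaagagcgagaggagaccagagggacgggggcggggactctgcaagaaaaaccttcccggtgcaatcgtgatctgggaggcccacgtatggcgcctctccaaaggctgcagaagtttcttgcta

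ZEB1 and ZEB2 are also held down by the miR-200 family, whose mature sequences are shown because target sites pair with the seed. The seed, bases 2 to 8, is in capitals, and it divides the family into a group with AAUACUG (miR-200b-3p, miR-200c-3p and miR-429) and a group with AACACUG (miR-200a-3p and miR-141-3p), as RefSeq gives them for GRCh38.p14.
miR-200b-3p: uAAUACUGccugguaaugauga
miR-200c-3p: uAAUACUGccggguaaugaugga
miR-429: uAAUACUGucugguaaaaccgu
miR-200a-3p: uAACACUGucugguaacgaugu
miR-141-3p: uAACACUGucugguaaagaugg

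The deposited table quantifies long RNA, in which the precursor genes MIR200A, MIR200B, MIR200C, MIR141 and MIR429 and the host gene MIR200CHG were listed at 0 in all 4 libraries. A 0 in this table can be a failed estimate, and mature miRNAs were not analysed here. Of the hosts of other miRNAs in the same regulatory loops, MIR205HG was at 32.2 and 30.75 TPM in control and 30.75 and 35.5 TPM in oeDAZL, with overlapping groups. MIR34AHG, the host of the miRNA that restrains SNAI1, was at 9.97 and 0.0706 TPM in control and 10.03 and 9.37 TPM in oeDAZL. Control 2 was the low library, and the log2 fold change was 1.64 (standard error 0.97, adjusted p of 0.387 in limma).

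Beyond the 10 members, genes of the same pathway were taken from lists and set beside all tested genes. The called genes of these pathway lists, COL3A1 and DCN, were both in the mesenchymal list. Of 34 mesenchymal genes, 33 were tested, and 16 had an unadjusted P under 0.05, 12 with lower and 4 with higher values in oeDAZL, beside 20.2% of all tested genes (15.2% lower and 5.02% higher). The median log2 fold change of the list was −0.03, against −0.08 over all tested genes, and became 0.04 with median-of-ratios scaling, −0.21 without control 1 and −0.12 without oeDAZL 1, so that no direction can be given for the list.

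COL3A1, a fibrillar collagen of soft connective tissue, was at 583 and 479 TPM in control and 224 and 220 TPM in oeDAZL. The oeDAZL libraries were under the lower control library by a wide margin. COL3A1 fell by 1.25 on the log2 scale (standard error 0.09, adjusted p of 0.0344 in limma), and was the only gene of the lists to pass the adjusted threshold with all libraries. Over the alternatives its adjusted p in limma ranged from 0.00752 to 0.322 while its log2 fold change stayed between −1.39 and −1.10, and the threshold was missed with either rescaling, without the TPM filter and without the trend. DCN, which encodes the collagen-binding proteoglycan decorin, was at 10.1 and 6.45 TPM in control and 3.05 and 3.54 TPM in oeDAZL. DCN was the other called gene of the lists, with a log2 fold change of −1.08 (standard error 0.22, adjusted p of 0.1 in limma), and it missed 2-fold without control 1, at −0.80, and after quantile normalization, at −0.94.

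LUM, a related proteoglycan of collagen fibrils, was at 335 and 260 TPM in control and 174 and 186 TPM in oeDAZL. COL1A1, the main collagen chain of mesenchyme, was at 729 and 651 TPM in control and 455 and 486 TPM in oeDAZL. ACTA2, smooth muscle actin, was at 308 and 343 TPM in control and 210 and 221 TPM in oeDAZL. For all 3 genes both oeDAZL libraries were below both control libraries, with log2 fold changes of −0.71, −0.55 and −0.59 and adjusted p-values in limma of 0.0896, 0.0885 and 0.0836. The other genes with lower values and an unadjusted P under 0.05 were COL1A2, COL5A1, COL5A2, SPARC, MMP2, PDGFRB and FBN1, with log2 fold changes between −0.30 (FBN1) and −0.14 (COL5A2). None of these 7 kept an unadjusted P under 0.05 with median-of-ratios scaling. Their log2 fold changes then lay between −0.22 (FBN1) and −0.0536 (COL5A2), with PDGFRB at −0.17, COL1A2 at −0.11 and COL5A1 at −0.11. After quantile normalization all of them except FBN1 kept an unadjusted P under 0.05, with log2 fold changes between −0.22 (COL1A2) and −0.12 (COL5A2). The 2 rescalings thus differed for these genes.

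Among the integrin subunits, which bind fibronectin and other matrix proteins, ITGB1 and ITGAV had an unadjusted P under 0.05, both with higher values. ITGB1 was at 543 and 660 TPM in control and 829 and 788 TPM in oeDAZL. ITGAV was at 158 and 220 TPM in control and 276 and 256 TPM in oeDAZL. Both genes were higher in both oeDAZL libraries, with log2 fold changes of 0.43 (standard error 0.10) and 0.51 (standard error 0.15) and adjusted p-values in limma of 0.110 and 0.158, and without control 1 they were at 0.29 and 0.27. ITGA5, the fibronectin receptor chain, was at 68.9 and 82.9 TPM in control and 68.6 and 65.4 TPM in oeDAZL. Its oeDAZL libraries were the lower ones (log2 fold change −0.17, unadjusted P of 0.127 in limma). Control 1 lay close to oeDAZL 1, so the difference in ITGA5 came mainly from control 2. For ITGB3 the groups overlapped. The matrix protease MMP9 (log2 fold change 0.51) and the secreted protein FSTL1 (0.22, or 0.14 without control 1) completed the 4 genes with higher values.

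For 14 of the 33 tested mesenchymal genes control 1 was the lowest library, and for 6 it was the highest, COL3A1, LUM and DCN among them, beside 21.3% lowest and 44.1% highest over all tested genes. POSTN and CD44 are examples with a wide gap. POSTN, periostin, was at 40.6 TPM in control 1 and at 122 TPM in control 2, 117 TPM in oeDAZL 1 and 94.8 TPM in oeDAZL 2. CD44, a hyaluronan receptor, was at 18.3 TPM in control 1 and at 41.4, 44.4 and 34.1 TPM in the others. For these genes control 1 was alone at the low end and control 2 was within or above the oeDAZL range.

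**Figure D4:**
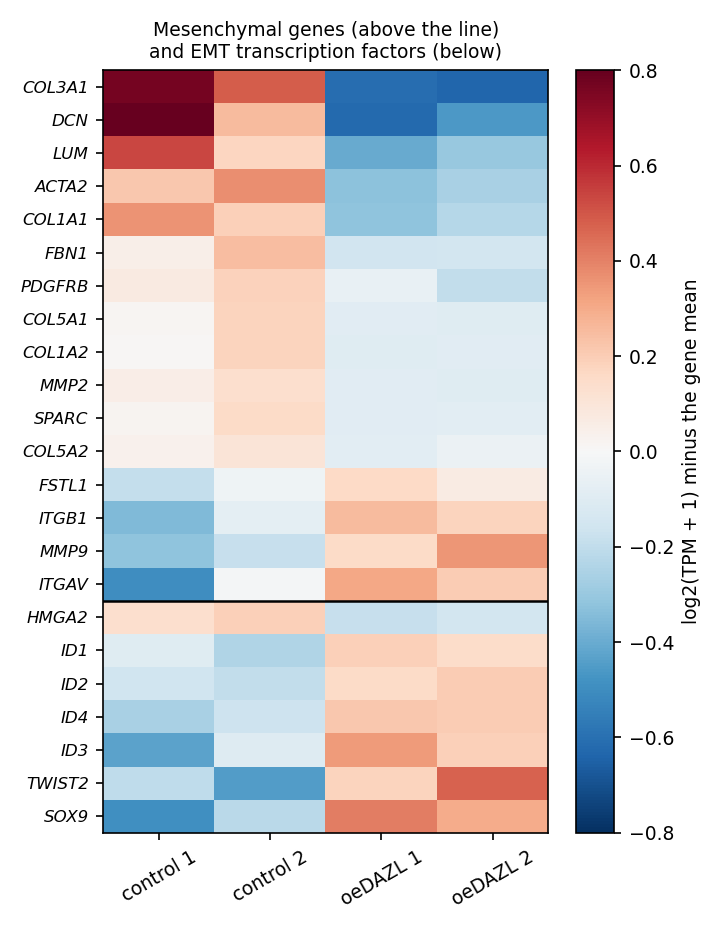
Deviation of each library from the gene mean on log2(TPM + 1), for the 16 mesenchymal genes and the 7 genes of the EMT transcription factor list with an unadjusted P under 0.05. Genes were chosen by this P, so the separation of the groups is a consequence of the choice, and COL3A1 and DCN have the most negative fold changes (−1.25 and −1.08).

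The list of further EMT transcription factors also holds regulators of other kinds, the ID genes and HMGA2. Of its 18 genes, 15 were tested, and 7 had an unadjusted P under 0.05, 6 with higher and 1 with lower values. Among all tested genes 5.02% were higher and 15.2% lower under this P. The 6 were ID1, ID2, ID3, ID4, SOX9 and TWIST2, so most of them belong to the ID family. The ID genes, classic targets of BMP signalling whose proteins bind E-proteins and keep them from DNA, had higher RNA values in oeDAZL without passing the adjusted threshold in limma. ID1 was at 828 and 749 TPM in control and 1008 and 978 TPM in oeDAZL. ID2 was at 294 and 287 TPM in control and 367 and 379 TPM in oeDAZL. ID3 was at 299 and 374 TPM in control and 511 and 460 TPM in oeDAZL.

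ID4, the fourth of the family, was at 38.2 and 40.7 TPM in control and 53.4 and 52.9 TPM in oeDAZL. For each of the ID genes both oeDAZL libraries were above both control libraries, as for 16% of all tested genes. The log2 fold changes were 0.33 for ID1, 0.36 for ID2, 0.53 for ID3 and 0.42 for ID4, with standard errors of 0.06, 0.05, 0.11 and 0.07. Their adjusted p-values in limma lay between 0.0896 and 0.104, and without control 1 the log2 fold changes were 0.41, 0.38, 0.37 and 0.38. SOX9, a regulator of neural crest and cartilage, was at 24.9 and 30.4 TPM in control and 47.4 and 43.8 TPM in oeDAZL, a log2 fold change of 0.71 (standard error 0.11, adjusted p of 0.0896 in limma). TWIST2, the close relative of TWIST1, was at 4.15 and 3.36 TPM in control and 5.70 and 7.24 TPM in oeDAZL, with a log2 fold change of 0.65 (standard error 0.18, adjusted p of 0.148 in limma). HMGA2, a chromatin protein and known target of let-7, was the gene with lower values, at 198 and 206 TPM in control and 159 and 163 TPM in oeDAZL (log2 fold change −0.33, adjusted p of 0.0896 in limma). Of the 15 genes, 8 were higher and 7 lower, so the median log2 fold change of 0.28 is the value of SNAI3 next to a gap down to SOX4 (−0.0057), and it was 0.16 without control 1 and 0.18 without control 2.

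The epithelial list, with junction, polarity, splicing and keratin genes, divided between the directions. All 40 genes were tested, and 9 had an unadjusted P under 0.05, a share near the 20.2% of all tested genes. Of the 9, 5 had higher and 4 had lower values in oeDAZL, beside 5.02% higher and 15.2% lower among all tested genes. P-cadherin (CDH3) was at 558 and 445 TPM in control and 356 and 427 TPM in oeDAZL. The polarity gene LLGL2 was at 95.9 and 101 TPM in control and 123 and 119 TPM in oeDAZL. The tight junction gene TJP3 was at 25.4 and 21.6 TPM in control and 17.5 and 16.9 TPM in oeDAZL. The groups did not overlap for these genes, and their log2 fold changes were −0.35, 0.29 and −0.43, with adjusted p-values in limma of 0.209, 0.103 and 0.126. Without control 1, CDH3 was at −0.19.

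The keratins KRT8, KRT18 and KRT19, which have pseudogene copies, were the most abundant genes of the list. KRT8 was at 6421 and 6792 TPM in control and 7321 and 7269 TPM in oeDAZL. The log2 fold change of KRT19, 0.15 as deposited, became −0.01 after quantile normalization. The median log2 fold change of the epithelial list was −0.04, and it became 0.04 with median-of-ratios scaling, so that no direction can be given for the list.

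Among 18 classical cadherins, CDH1 and CDH2 included, 10 were tested, 7 had lower values and 5 had an unadjusted P under 0.05, all of them lower, while 10901 of all 16687 tested genes were lower and 15.2% were lower under this P. Besides CDH1 and CDH3 these were CDH6, CDH10 and CDH24, of which CDH10 went from −0.28 to −0.14 without control 1. With median-of-ratios scaling CDH1, CDH3 and CDH10 missed this P, at −0.10, −0.27 and −0.20. CDH6 was at 8.16 and 7.45 TPM in control and 4.83 and 4.22 TPM in oeDAZL. CDH24 was at 55.7 and 48.6 TPM in control and 37.3 and 39.1 TPM in oeDAZL. Neither overlapped between the groups, and their log2 fold changes were −0.67 (standard error 0.14) and −0.44 (standard error 0.09), with adjusted p-values in limma of 0.106 and 0.0987. With all libraries CDH2 was the tested cadherin with the highest fold change in value, but it was at 0.01 without control 1. The median of the 10 was −0.24 as deposited, −0.18 with median-of-ratios scaling and −0.17 after quantile normalization.

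A list of SNAI and ZEB partners holds co-repressors such as CTBP1, KDM1A and the EZH2 complex together with kinases and ubiquitin ligase subunits that control SNAI protein stability, and all of its genes passed the filter. Of these 20 genes, 3 had an unadjusted P under 0.05, SUZ12 with higher and CTBP1 and FBXL14 with lower values, and the largest of the 3 log2 fold changes in size was −0.23 (FBXL14, a ubiquitin ligase subunit). The median of the list was −0.05, and 0.04 with median-of-ratios scaling. Of 26 signalling genes, 23 were tested and 5 had an unadjusted P under 0.05, so that neither list exceeded the 20.2% of all tested genes by more than 1 gene, and TGFB1 was not analysed here. TGFBR1, a receptor for TGF-beta, was at 101 and 107 TPM in control and 85.8 and 86.4 TPM in oeDAZL. PTK2, the focal adhesion kinase that signals from integrins, was at 119 and 117 TPM in control and 142 and 139 TPM in oeDAZL. The groups did not overlap for either gene, and their log2 fold changes were −0.27 and 0.25, with adjusted p-values in limma of 0.114 and 0.105. The other signalling genes under 0.05 were TGFB2 with lower and SMAD7 and FGF2 with higher values, and the median of the list was −0.02, which became 0.06 with median-of-ratios scaling.

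**Figure D5:**
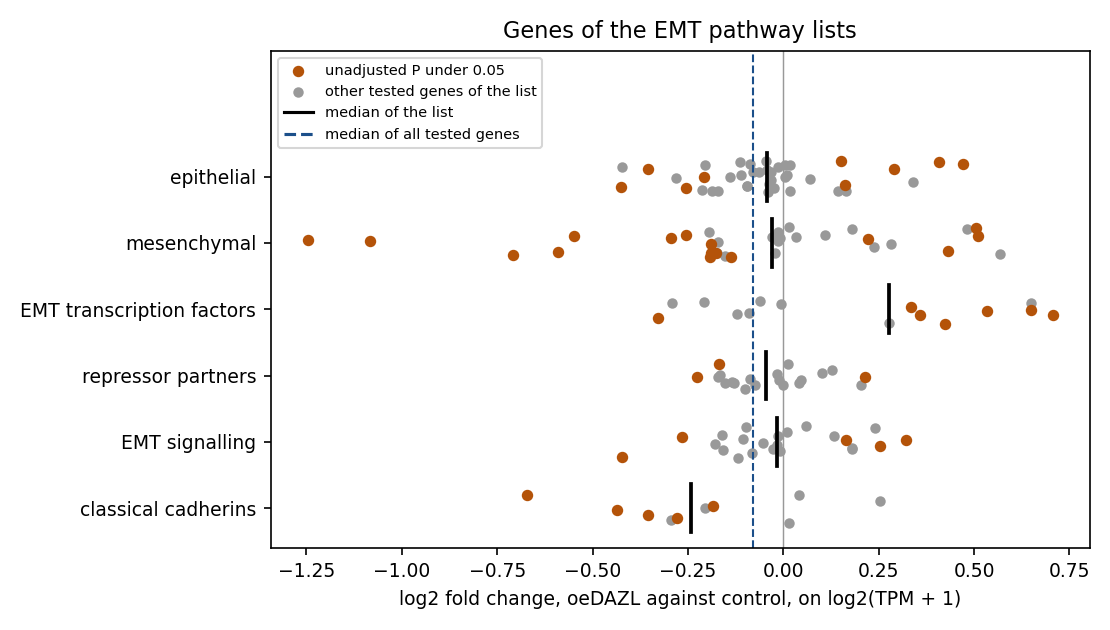
Log2 fold change of every tested gene of 6 EMT lists between oeDAZL and control, on log2(TPM + 1), with unadjusted P under 0.05 in orange, list medians as black bars and the median of all tested genes (−0.08) as a dashed line. COL3A1 and DCN lie at −1.25 and −1.08 among the mesenchymal genes, and the genes of the transcription factor list divide into 8 higher and 7 lower around a gap.

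Markers of the cell types that such a culture could hold were set beside these results. Of 8 germ cell markers, 7 were tested, and their summed level was 104, 113, 117 and 116 TPM in control 1, control 2, oeDAZL 1 and oeDAZL 2. Of the 7, 6 had lower means in oeDAZL, as had 10901 of all 16687 tested genes, and PDPN, at 32.9 and 49.7 TPM in control and 58.5 and 52.5 TPM in oeDAZL, was the other, with a log2 fold change of 0.44 that was 0.15 without control 1. TFAP2C was at 53.9 and 49.1 TPM in control and 44.3 and 50.4 TPM in oeDAZL. Of the other germ cell markers, NANOS3, SOX17, PRDM1, DPPA3 and DND1 were at most 3.35 TPM in every library. KIT was at 7.70 and 6.44 TPM in control and 6.23 and 6.24 TPM in oeDAZL. Amnion and trophoblast markers summed to 1333 and 1362 TPM in control and 1555 and 1570 TPM in oeDAZL, with HAND1 as the most abundant of the 7 genes, at 958, 1042, 1250 and 1247 TPM. HAND1 carries this sum, and 4 of the 6 tested genes were lower in oeDAZL, among them ISL1 at −0.49 and CGA at −1.18 on the log2 scale, or −0.23 and −0.92 without control 1.

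Of the 5 neural crest and neural markers, 1 was tested, and their sum was 7.69 TPM in control 1 and 1.71, 0.412 and 1.03 TPM in the others. SOX10 was at 1.77 TPM in control 1 and at most 0.287 TPM in the other libraries, and PAX6 had the highest mean of the list over the 4 libraries. The 6 endoderm markers summed to 263 and 158 TPM in control and 161 and 204 TPM in oeDAZL, with APOA1 as the most abundant and AFP at 36.3 TPM in control 1 and 13.1 TPM in control 2. The 6 smooth muscle and cardiac markers summed to 589 and 874 TPM in control and 882 and 807 TPM in oeDAZL, with ACTC1 as the most abundant and lowest in control 1. TNNT2 went the other way, at 26.0 and 22.4 TPM in control and 14.4 and 14.6 TPM in oeDAZL (log2 fold change −0.70, adjusted p of 0.0896 in limma). Control 1 thus differed from control 2 in neural, endodermal and contractile markers as well as in mesenchymal ones, and the part of these cells in the EMT results was not tested. Endothelial markers summed to between 16.8 and 22.1 TPM, with KDR as the most abundant of the 6 (log2 fold change −0.55, adjusted p of 0.0962 in limma), CDH5 and TEK, the other tested genes, at 0.04 and 0.08, and PECAM1 listed at 0, and the 5 blood markers summed to at most 0.577 TPM, with HBE1 and HBZ listed at 0 in every library.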

How the data were processed

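RNA sequencing of 2 control and 2 oeDAZL libraries was used, and the miRNA libraries of the series were not analysed here. The authors deposited TPM per gene, from reads mapped to hg38 with HISAT2 2.1.0 and quantified with StringTie 2.1.4. The paper states that reads without a unique match were left out. TPM keeps no depth, so no counting error is given, and strandedness is not given in the sources used here. Of 65003 entries, 45 pseudoautosomal copies on chromosome Y and 18 repeats were left out. limma 3.58.1 (with trend, R 4.3.3) was run on log2(TPM + 1) for genes averaging 1 TPM or more, and p-values were adjusted over all 16687 by Benjamini-Hochberg. The procedure was run on simulated data with independent noise and with changes larger than those of the members. That run cannot tell how it performs for changes of the members' size. Fold changes on this scale understate those of low genes. Alternatives changed the pseudocount, TPM filter, scaling, trend and replicate blocks, left out mitochondrial genes, or left out 1 library. Apart from the crossed block, run for counts alone, the same alternatives were run for the 55 pathway and marker list genes with an unadjusted P under 0.05. Members and lists were chosen with earlier results of these data known. Gene positions are from GENCODE 44 on hg38.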

Additional observations from a re-analysis of the deposited data

How the results depend on the processing

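The number of members with an adjusted p under 0.05 in limma, 0 as reported, was 0 to 4 when 1 library was left out (0 without control 1, 4 without control 2) and 1 with a crossed replicate block. The number with an unadjusted P under 0.05, 3 as reported, was 1 without the TPM filter, 5 with the crossed block and 1 to 6 when 1 library was left out. The 115 called genes became 322 with a pseudocount of 0.1, 29 at a mean TPM of at least 5 and 110 to 325 when 1 library was left out. The 10 genes under an adjusted p of 0.05 in limma became 1 without the TPM filter, 3 with median-of-ratios scaling, 3 after quantile normalization, 1 without the trend, 4 with the replicate block, 1089 with the crossed block and 2 to 833 when 1 library was left out. The 3368 genes under an unadjusted P of 0.05 became 1574 to 4678. The cause was not tested.

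Leaving out 1 library gave log2 fold changes of −0.26 to −0.11 for CDH1, 0.01 to 0.49 for CDH2, 0.0424 to 0.34 for VIM, −0.0257 to 0.17 for FN1, 0.18 to 0.56 for SNAI2, −0.37 to 0.11 for ZEB2 and −0.0187 to 0.21 for TWIST1, and a difference in the log2 ratio of VIM to EPCAM of −0.26 to 0.14. FN1 reversed without control 1, and ZEB2, TWIST1 and the ratio of VIM to EPCAM without control 2. ZEB1 has no value at a mean TPM of at least 5. In this balanced design a replicate block cannot change the fold changes, only their spread. It brought no member under an adjusted p of 0.05 in limma.

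The epithelial median was 0.0406 with median-of-ratios scaling and −0.0881 to 0.0040 when 1 library was left out. The mesenchymal median was 0.0377 and −0.21 to −0.0359. The median of the EMT transcription factor list was 0.33 with a pseudocount of 0.1, 0.33 with median-of-ratios scaling and 0.16 to 0.33 when 1 library was left out. The repressor partners were at 0.0375 with median-of-ratios scaling, −0.0173 after quantile normalization and −0.0704 to −0.0315. EMT signalling genes were at 0.0635, 0.0102 and −0.042 to 0.0074. The classical cadherins were at −0.32 with a pseudocount of 0.1, −0.18 with median-of-ratios scaling, −0.17 after quantile normalization and −0.27 to −0.16. KRT19 was at −0.0088 after quantile normalization. The crossed block and the list medians without 1 library were chosen after the data were seen. The alternatives for DAZL and for the 55 list genes were not planned either.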

Other observations

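POU5F1, a pluripotency gene with pseudogene copies, was at 13.6 and 10.6 TPM in control and 22.4 and 20.4 TPM in oeDAZL, with a log2 fold change of 0.79 (adjusted p of 0.0896 in limma). The 8 pluripotency genes, of which 6 were tested, summed to 611, 552, 549 and 530 TPM in control 1, control 2, oeDAZL 1 and oeDAZL 2, with LIN28A as the most abundant. Of the 6, 4 had lower means in oeDAZL (SOX2, LIN28A, DPPA4 and SALL4), beside 10901 of all 16687 tested genes. TDGF1 was the other gene with a higher mean, at 5.05 and 8.26 TPM in control and 14.1 and 10.7 TPM in oeDAZL, with a log2 fold change of 0.82 (adjusted p of 0.155 in limma), or 0.52 without control 1.

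The marker genes PAX6, CGA and AFP passed the call rule with lower values in oeDAZL. They were 1 of 1 tested neural crest and neural marker, 1 of 6 amnion and trophoblast markers and 1 of 6 endoderm markers. Among all tested genes 0.689% were called. Each of these marker calls depended on control 1. Without it CGA was at −0.92 and AFP at −0.34 on the log2 scale, and PAX6 fell under the TPM filter. AFP also missed 2-fold with median-of-ratios scaling (−0.96), after quantile normalization (−0.94) and without oeDAZL 1 (−0.87). PAX6 was at 3.83 and 1.14 TPM in control and 0.0967 and 0.558 TPM in oeDAZL. CGA was at 15.5 and 10.4 TPM in control and 4.34 and 5.82 TPM in oeDAZL. AFP was at 36.3 and 13.1 TPM in control and 8.91 and 11.6 TPM in oeDAZL.

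Of 8 antisense and divergent neighbours of EMT genes, 5 were found and 4 tested, and the means of these 4 were lower in oeDAZL, as for 10901 of all 16687 tested genes. The groups overlapped for ZEB1-AS1 and VIM-AS1, while over all tested genes the groups did not overlap for 54.4%. Of the 4, 1 had an unadjusted P under 0.05, beside 20.2% of all tested genes. EPCAM-DT was at 2.66 and 1.57 TPM in control and 0.836 and 0.838 TPM in oeDAZL, with a log2 fold change of −0.74 (adjusted p of 0.204 in limma), or −0.49 without control 1. CDH1-AS1, FN1-DT and TWIST1-AS1 were not analysed here.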
